A study of Homo sapiens with 4 samples.

Results

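The genes described here are 31 genes of cholesterol synthesis and of its control by the sterol regulatory element-binding proteins (SREBPs), with a few genes of cholesterol transport and fatty acid synthesis that belong to the same regulatory circuit. They were taken by symbol from a list of such genes, and all 31 were found among the 26348 genes of the expression table. RNA of human cell lines was sequenced in 4 groups: A549 cells exposed to a magnetic field for 2 h, unexposed control A549 cells, 293T cells exposed in the same way, and unexposed control 293T cells. Each group had 3 libraries. A549 is a line derived from a human lung adenocarcinoma and 293T is a transformed line derived from human embryonic kidney, so each cell type is represented by 1 line. The labels name the exposure but give no field strength, and the series asks how the field acts on non-small cell lung cancer. The labels count each group as 1 sample with 3 replicates and do not say that the replicates were separate cultures, so the p-values reflect how far these libraries spread and nothing beyond that, and the spread may be technical only. In bulk RNA such as this, fewer cells expressing a gene and less of its RNA per cell cannot be told apart.

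Cells make cholesterol from acetyl-CoA through mevalonate, farnesyl diphosphate, squalene and lanosterol. The SREBPs, encoded by SREBF1 and SREBF2, are made as precursors in the endoplasmic reticulum membrane and are escorted by SCAP to the Golgi apparatus for cleavage when sterols are scarce, while INSIG1 and INSIG2 hold SCAP back when sterols are plentiful. SREBF2 products act mainly on cholesterol genes and SREBF1 products mainly on fatty acid genes, and INSIG1 is itself an SREBP target.

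Total counts recovered from the expression values were 37171616 to 38883963 per library, and the members' own counts were between 15 for ABCG1 and 72971 for SCD. ABCG1 and, in 293T, ABCA1 rested on few counts. The next lowest counts were 502 for HSD17B7, 504 for INSIG2, 508 for TM7SF2, 525 for SREBF1 (in 293T) and 583 for MVK, where counting error alone is 4.14 to 4.46% of the level in a library. The 10 genes listed as markers of the A549 line summed to 8331 to 8499 FPKM (fragments per kilobase of transcript, scaled to sequencing depth) in exposed A549 and 7976 to 8065 FPKM in control A549, against 174 to 183 FPKM in exposed 293T and 170 to 175 FPKM in control 293T. The 8 markers of the 293T line summed to 24.8 to 26.7 FPKM in exposed A549 and 30.4 to 31.6 FPKM in control A549, against 191 to 204 FPKM in exposed 293T and 203 to 206 FPKM in control 293T. Markers of alveolar lung and of kidney tubule, the tissues in the labels, were low. Of the 6 alveolar genes listed, 4 were in the table and summed to 1.02 to 1.39 FPKM in exposed A549 and 0.642 to 0.818 FPKM in control A549, against 1.84 to 1.86 FPKM in exposed 293T and 1.62 to 1.83 FPKM in control 293T. Of the 6 tubule genes, 4 were in the table and summed to 0.150 to 0.199 FPKM in exposed A549 and 0.217 to 0.281 FPKM in control A549, against 1.12 to 1.30 FPKM in exposed 293T and 1.21 to 1.22 FPKM in control 293T. Mitochondrially encoded genes took 7.69 to 7.96% of the counts in exposed A549 and 8.35 to 9.28% in control A549, and 4.37 to 4.45% in exposed 293T and 4.85 to 5.21% in control 293T. Their part in the results was not tested, beyond the rescaling without mitochondrial genes that is given with the results. On the first principal component of each line, exposed replicate 3 lay nearest to the controls, at 9.91 in A549 and 6.51 in 293T, against 15.7 and 18.2 for the other exposed A549 libraries and 16.1 and 14.7 for the other exposed 293T libraries.

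The members spanned a wide range of levels per length. SCD, the stearoyl-CoA desaturase that introduces the double bond of oleate, was the most abundant member in all 4 groups, and the farnesyl diphosphate synthase gene FDPS came second. SCD averaged 349 ± 12.1 FPKM in exposed A549, 284 ± 7.47 FPKM in control A549, 162 ± 1.90 FPKM in exposed 293T and 140 ± 2.89 FPKM in control 293T (SD, n = 3 each). The sterol exporter genes ABCA1 and ABCG1 were the lowest in all 4 groups. ABCG1 had 0.0336 to 0.332 FPKM over the 12 libraries, failed the filter on low values (at least 0.5 FPKM in at least 3 libraries) and was not tested; the other 30 members were tested among 13811 genes. Of the 30 pairs of neighbours in the order of levels, 15 had overlapping libraries in exposed A549, 12 in control A549, 12 in exposed 293T and 13 in control 293T, so close neighbours in that order often could not be separated. The median coefficient of variation between replicates over the members, set beside that over all genes tested, was 3.74% against 5.81% in exposed A549, and it was 3.04% against 5.28% in control A549. In exposed 293T it was 4.68% against 6.10%, and in control 293T it was 3.00% against 4.33%. The genes were not matched by level in this comparison, so the lower values do not set the members apart from other genes of like level.

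A small group of members changed in the same direction in both lines, with SREBF1 and FASN lower and SCD, MSMO1 and NPC1 higher after exposure. Of all 13811 genes tested, 6.32% were called higher in both lines and 14.2% lower in both, beside 3 and 2 of the 30 members tested. Genes were called with limma on log2(FPKM + 1) values, fitted over all 13811 genes, at a Benjamini-Hochberg adjusted p under 0.05, and all fold changes below are on that scale. SREBF1, which encodes SREBP-1a and SREBP-1c, had 18.2, 19.1 and 20.4 FPKM in exposed A549, against 27.4, 26.3 and 28.2 FPKM in control A549. It had 2.96, 2.58 and 2.84 FPKM in exposed 293T, against 3.71, 3.64 and 4.02 FPKM in control 293T. In both lines all 3 exposed libraries lay below all 3 controls, although the level differed widely between the lines. The log2 fold change of SREBF1 was -0.49 ± 0.05 (SE) in A549 (limma adjusted p = 3.57e-05) and -0.34 ± 0.05 in 293T (limma adjusted p = 5.68e-04). In GENCODE release 29, 556 exonic bases of SREBF1, 6.92% of its exonic length, lie opposite exons of RAI1 on the other strand, and the sources do not say whether counting used strand. RAI1 had 5.94 ± 0.837 FPKM in exposed A549 and 12.5 ± 0.505 FPKM in control A549, and 4.70 ± 0.211 FPKM in exposed 293T and 5.78 ± 0.457 FPKM in control 293T (SD, n = 3 each), and the part of shared reads in the SREBF1 result was not tested.

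FASN, the fatty acid synthase that makes palmitate, moved with SREBF1. It had 36.4, 35.3 and 37.2 FPKM in exposed A549, against 49.9, 48.0 and 50.9 FPKM in control A549. It had 63.0, 58.5 and 61.2 FPKM in exposed 293T, against 76.7, 75.1 and 74.7 FPKM in control 293T. The groups did not overlap in either line, and the log2 fold change was -0.44 ± 0.03 (SE) in A549 (limma adjusted p = 3.63e-06) and -0.31 ± 0.03 in 293T (limma adjusted p = 8.42e-05). SCD, which acts on the products of FASN, moved the opposite way. It had 361, 349 and 337 FPKM in exposed A549, against 275, 289 and 287 FPKM in control A549. It had 161, 164 and 161 FPKM in exposed 293T, against 142, 142 and 137 FPKM in control 293T. The exposed libraries were all above the controls, with a log2 fold change of 0.30 ± 0.03 (SE) in A549 (limma adjusted p = 2.25e-05) and 0.21 ± 0.03 in 293T (limma adjusted p = 3.53e-04). The ratio of SCD to FASN within a library, which does not depend on how libraries are scaled, was 9.93, 9.87 and 9.05 in exposed A549 and 5.51, 6.02 and 5.64 in control A549. In 293T the ratio was 2.56, 2.81 and 2.63 in exposed libraries and 1.85, 1.89 and 1.83 in control libraries. The ratio of SREBF1 to SREBF2 was 1.25, 1.25 and 1.41 in exposed A549 and 1.86, 1.76 and 1.84 in control A549, and 0.136, 0.123 and 0.139 in exposed 293T and 0.159, 0.160 and 0.178 in control 293T. Both ratios separated exposed from control libraries without overlap in each line. For SCD and FASN this followed from their levels, which already lay apart in opposite directions, so the ratio adds no separate evidence. The level of SREBF1 by itself also separated the groups in both lines. The other ratio computed, of INSIG1 to INSIG2, overlapped in both lines, at 4.16 to 4.999 in exposed A549 and 3.86 to 4.91 in control A549, and at 9.82 to 12.5 in exposed 293T and 11.1 to 13.7 in control 293T.

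**Figure D1:**
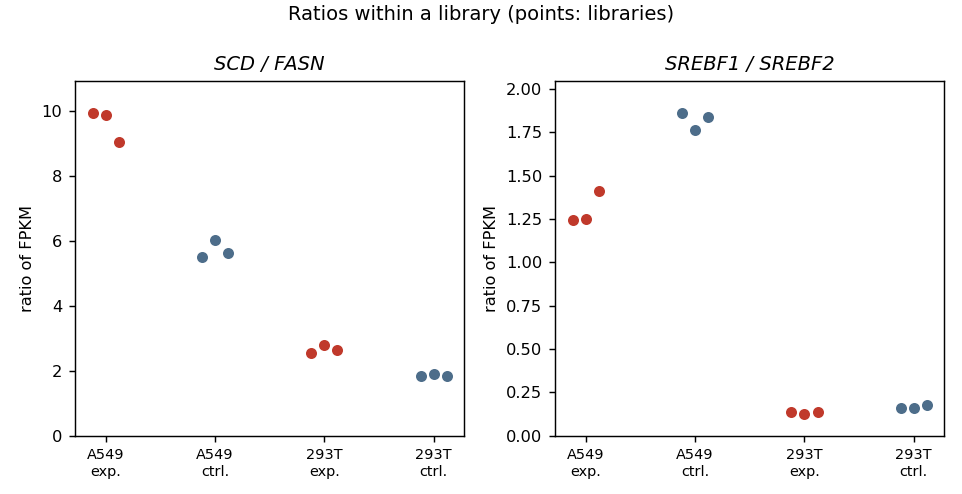
FPKM of SCD divided by FPKM of FASN (left) and of SREBF1 divided by SREBF2 (right) within each library, on linear axes from 0; each point is 1 library, 3 per group, red for exposed and blue for control. Exposed A549 libraries had an SCD to FASN ratio of 9.05 to 9.93, above the control A549 libraries at 5.51 to 6.02, and the exposed libraries lay below the controls in the SREBF1 to SREBF2 ratio of both lines.

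MSMO1 encodes a methylsterol oxidase that takes part in removing methyl groups of lanosterol derivatives. It had 24.5, 21.5 and 24.03 FPKM in exposed 293T, against 15.9, 15.8 and 17.1 FPKM in control 293T. That is a 1.43-fold higher level without overlap between the groups, and the log2 fold change was 0.49 ± 0.06 (SE, limma adjusted p = 1.97e-04). In A549 the groups overlapped, with 31.5, 34.7 and 32.6 FPKM in exposed libraries and 31.9, 27.7 and 27.3 FPKM in control libraries, and the log2 fold change of 0.18 ± 0.06 passed narrowly (limma adjusted p = 0.0406). This A549 call was lost without any of 6 single libraries: the adjusted p was 0.143 and 0.0704 without exposed A549 replicate 2 or 3, 0.128 and 0.153 without control A549 replicate 2 or 3, and 0.0520 and 0.0509 without control 293T replicate 1 or 2. It was also lost at an adjusted p of 0.0995 without mitochondrial genes and of 0.0788 in the fit of A549 alone.

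NPC1, the lysosomal membrane protein that passes cholesterol out of lysosomes, averaged 12.6 ± 0.446 FPKM in exposed 293T and 10.7 ± 0.230 FPKM in control 293T (SD, n = 3 each), a log2 fold change of 0.22 (limma adjusted p = 0.00151). In A549 it averaged 11.96 ± 0.487 FPKM in exposed cells and 10.9 ± 0.339 FPKM in control cells, a log2 fold change of 0.12 (limma adjusted p = 0.0372). The A549 call was lost at an adjusted p of 0.136 or 0.0948 without exposed A549 replicate 1 or 2, and of 0.123 or 0.0704 without control A549 replicate 1 or 3. It was lost also without mitochondrial genes (adjusted p = 0.119) and in the fit of A549 alone (adjusted p = 0.0752). NPC1 shares 604 exonic bases, 5.98% of its exonic length, with RMC1, which itself had a log2 fold change of 0.17 in A549 and 0.15 in 293T, and the part of shared reads was not tested.

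**Figure D2:**
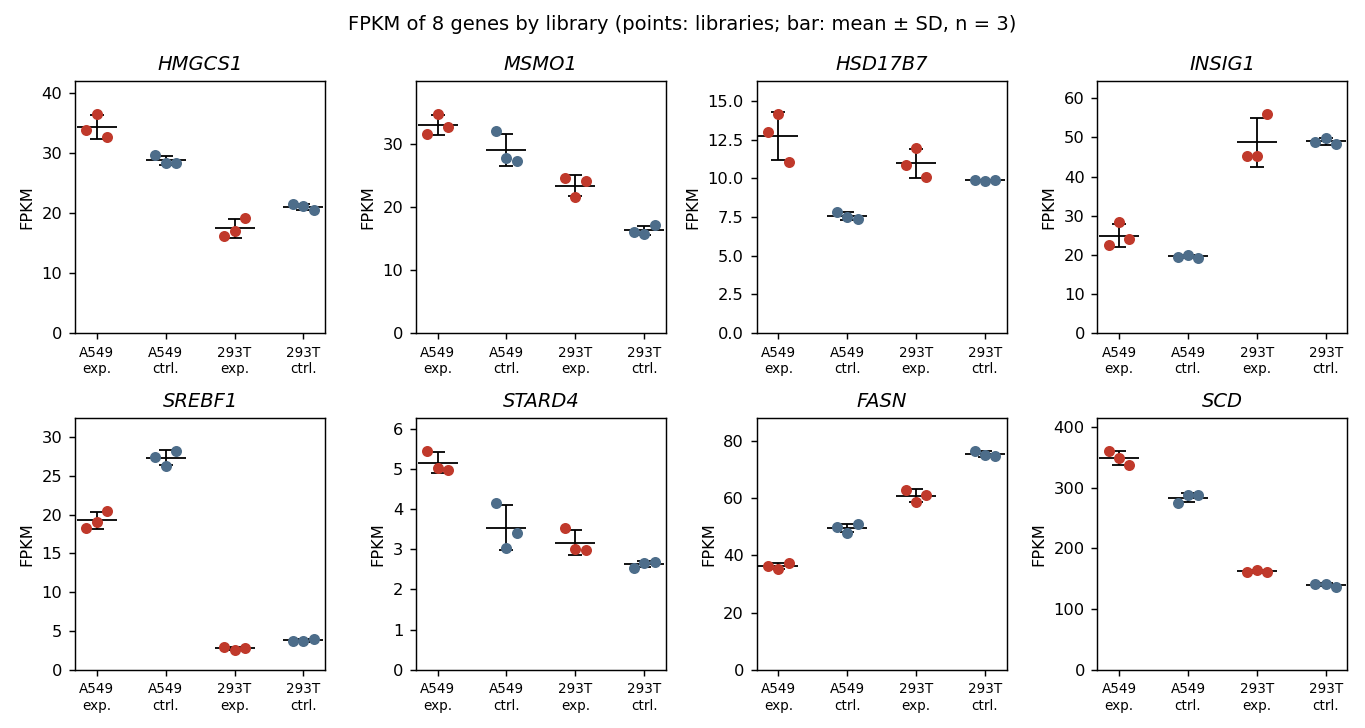
FPKM of selected members in each of the 12 libraries; each panel is 1 gene, each point 1 library, 3 per group, and the bar is the group mean with its SD. SREBF1 and FASN lay lower in exposed than in control libraries of both lines, SCD lay higher in both, and HMGCS1 lay higher in exposed A549 and lower in exposed 293T.

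Promoters are shown for the members called in the same direction in both lines, higher for MSMO1, NPC1 and SCD and lower for SREBF1, and for SREBF2, whose promoter holds a sterol element. Each is the 250 bases directly before the annotated start, on the gene's strand, from RefSeq on GRCh38.p14, with capitals marking each match to GGGCGG (the Sp1 box), CCAAT (bound by NF-Y) or the classical sterol regulatory element on either strand, so that CCGCCC and ATTGG are the same boxes read on the other strand. The genes are MSMO1 at chr4:165327419-165327668 on the plus strand and NPC1 at chr18:23586507-23586756 on the minus strand. SCD is at chr10:100346983-100347232 on the plus strand and SREBF1 at chr17:17836987-17837236 on the minus strand. SREBF2 is at chr22:41832855-41833104 on the plus strand, and it alone among the 26 genes matched holds a sterol element in the forms searched. Sterol elements of other forms or outside the window were not searched for.
MSMO1: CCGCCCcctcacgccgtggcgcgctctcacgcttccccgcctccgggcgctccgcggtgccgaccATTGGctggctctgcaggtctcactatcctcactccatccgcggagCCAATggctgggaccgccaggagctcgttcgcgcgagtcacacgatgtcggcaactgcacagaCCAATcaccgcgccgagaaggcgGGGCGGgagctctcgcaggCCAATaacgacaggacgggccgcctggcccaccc
NPC1: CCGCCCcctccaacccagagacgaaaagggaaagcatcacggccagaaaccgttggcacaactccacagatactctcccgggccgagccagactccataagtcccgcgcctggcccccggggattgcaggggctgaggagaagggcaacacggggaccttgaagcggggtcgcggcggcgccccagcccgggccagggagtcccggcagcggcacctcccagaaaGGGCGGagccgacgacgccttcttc
SCD: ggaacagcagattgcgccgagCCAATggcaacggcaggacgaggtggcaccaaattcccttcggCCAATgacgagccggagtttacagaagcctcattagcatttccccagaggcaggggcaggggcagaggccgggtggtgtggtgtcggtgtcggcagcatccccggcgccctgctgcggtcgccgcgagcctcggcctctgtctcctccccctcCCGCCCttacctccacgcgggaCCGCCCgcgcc
SREBF1: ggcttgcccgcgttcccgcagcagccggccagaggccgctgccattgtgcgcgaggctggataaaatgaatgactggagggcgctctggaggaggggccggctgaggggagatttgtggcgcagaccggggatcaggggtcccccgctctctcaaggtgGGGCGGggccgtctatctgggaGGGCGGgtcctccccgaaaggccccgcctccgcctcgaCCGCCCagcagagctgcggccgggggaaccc
SREBF2: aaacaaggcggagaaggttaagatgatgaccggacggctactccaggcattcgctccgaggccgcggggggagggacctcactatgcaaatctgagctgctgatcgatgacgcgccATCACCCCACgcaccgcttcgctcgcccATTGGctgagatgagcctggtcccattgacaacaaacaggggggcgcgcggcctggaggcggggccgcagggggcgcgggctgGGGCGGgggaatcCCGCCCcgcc
The sterol element of SREBF2 lies 125 to 134 bases before the start, with a CCAAT box on the other strand 102 to 106 bases before it. Promoters of FASN were not matched in this table. Of the 31 genes, 26 matched, with 35 promoter entries of 300 bases each (250 before to 50 after the start). GGGCGG was present in 32 of these 35 entries (91.4%), against 45.0% of all 35116 entries of the table, and CCAAT was present in 22 (62.9%), against 34.6% of all. The sterol element core TCACNCCAC, which overlaps the longer element in SREBF2, was present in 1 of the 35 and in 1.13% of all entries, and the classical element was present in 16 of all entries (0.0456%). These are matches of letters in a fixed window and say nothing of binding. All entries were counted whether or not the gene was expressed in these cells, and some genes had several entries. No comparison with expressed genes was made, so the shares do not set the members apart from other expressed genes.

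In A549, exposure was followed by higher HMGCS1, PMVK, FDPS, MSMO1 and HSD17B7, and by higher INSIG1, INSIG2, STARD4, NPC1 and SCD. MVK, MVD, ACACA, SREBF1 and FASN were lower. Of the 30 members tested, 10 rose and 5 fell, which is 15 of 30 members, against 40.2% of all 13811 genes tested (13.3% higher and 26.9% lower). The median log2 fold change of the members was 0.06, against -0.04 over all genes tested. Libraries of the groups did not overlap for 17 members, 10 above and 7 below, against 49.7% of all genes tested (17.1% above and 32.6% below). Another scaling shifted the balance, for all genes as for the members. After centring libraries on their medians 14 members rose and 4 fell, with 2695 of all genes higher and 2525 lower, and with libraries rescaled without mitochondrial genes 8 members rose and 7 fell, with 1432 of all genes higher and 4474 lower, against 1837 and 3711 as deposited.

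Of the 7 genes of the mevalonate and isoprenoid steps, 3 rose and 2 fell in A549, beside 13.3% of all genes tested higher and 26.9% lower. HMGCS1, which makes HMG-CoA, had 33.9, 36.6 and 32.7 FPKM in exposed A549, against 29.7, 28.4 and 28.3 FPKM in control A549. All exposed libraries lay above the controls, with a log2 fold change of 0.25 ± 0.06 (SE, limma adjusted p = 0.00493). FDPS, which makes farnesyl diphosphate, had 84.5, 84.4 and 81.2 FPKM in exposed A549, against 72.0, 73.4 and 72.5 FPKM in control A549 (log2 fold change 0.20, limma adjusted p = 8.86e-04). PMVK, the phosphomevalonate kinase, averaged 30.4 ± 2.42 FPKM in exposed A549 and 25.4 ± 0.890 FPKM in control A549 (SD, n = 3 each, log2 fold change 0.25, limma adjusted p = 0.00622). The kinase just before it, MVK, went the other way, at 3.60 ± 0.0803 FPKM in exposed A549 and 4.75 ± 0.113 FPKM in control A549 (log2 fold change -0.32, limma adjusted p = 5.59e-04). Exons of MMAB on the other strand overlap 306 exonic bases of MVK, 4.72% of its exonic length. MMAB reached 7.80 FPKM in its highest library, and the part of shared reads in the MVK result was not tested. The decarboxylase MVD, which follows PMVK, fell to 11.3 ± 0.792 FPKM in exposed A549, against 13.0 ± 0.269 FPKM in control A549 (log2 fold change -0.19, limma adjusted p = 0.0122), and that call was lost without exposed A549 replicate 2 (adjusted p = 0.0539) and after median centring (adjusted p = 0.0505). The thiolase ACAT2 and the isomerase IDI1 did not pass the threshold, with log2 fold changes of 0.08 and 0.09. Summed over the 7 genes, which the abundant FDPS dominates, the level was 208 ± 5.47 FPKM in exposed A549 and 187 ± 1.38 FPKM in control A549 (SD, n = 3 each).

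Of the 11 genes that make squalene or act between it and cholesterol, only MSMO1 and HSD17B7 passed the threshold in A549. This is 18.2% of the 11, against 40.2% of all genes tested. HSD17B7, which reduces the 3-keto sterol during demethylation, had 13.0, 14.2 and 11.1 FPKM in exposed A549, against 7.84, 7.53 and 7.37 FPKM in control A549. All exposed libraries lay above the controls by a 1.68-fold higher mean, and the log2 fold change of 0.67 ± 0.07 (SE, limma adjusted p = 3.66e-05) was the furthest from 0 among the members in either line. HSD17B7 has a transcribed pseudogene copy, HSD17B7P2, which is not analysed here, so its level may include reads from that copy. The farnesyl-diphosphate farnesyltransferase gene FDFT1 stayed within narrow limits, with a log2 fold change of -0.0017 and a 95% interval of -0.06 to 0.06, and the 7-dehydrocholesterol reductase gene DHCR7 had an interval of -0.10 to 0.10. The squalene epoxidase gene SQLE averaged 42.0 ± 1.55 FPKM in exposed A549 and 45.5 ± 1.03 FPKM in control A549, without overlap but short of the threshold (log2 fold change -0.11, limma adjusted p = 0.0617). It passed without exposed 293T replicate 1 or 3 (adjusted p = 0.0467 and 0.0201), in the fit of A549 alone (adjusted p = 0.0446), and under quantile normalisation and the rescaling without mitochondrial genes. SC5D, the desaturase of the next-to-last step, had a log2 fold change of 0.13 (limma adjusted p = 0.0729), with 0.20 and an adjusted p of 0.00956 without control A549 replicate 1. The remaining 6, LSS, CYP51A1, TM7SF2, NSDHL, EBP and DHCR7, had adjusted p-values of 0.209 or more.

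The regulators split in A549. INSIG1, which retains SCAP in the endoplasmic reticulum, had 22.4, 28.3 and 24.05 FPKM in exposed A549, against 19.5, 20.1 and 19.3 FPKM in control A549. INSIG2, its paralog, had 5.38, 5.66 and 5.53 FPKM in exposed A549, against 5.06, 4.09 and 4.22 FPKM in control A549. Both were higher in every exposed library than in any control, with log2 fold changes of 0.32 ± 0.08 (SE, limma adjusted p = 0.00905) for INSIG1 and 0.26 ± 0.07 (limma adjusted p = 0.0147) for INSIG2. The INSIG2 call was lost without control A549 replicate 2 (adjusted p = 0.0612) or 3 (adjusted p = 0.0575). SREBF2, the main activator of cholesterol genes, had 14.6, 15.3 and 14.4 FPKM in exposed A549, against 14.7, 14.9 and 15.4 FPKM in control A549. SCAP, the escort protein, had 11.4, 11.4 and 11.1 FPKM in exposed A549, against 11.6, 11.7 and 12.5 FPKM in control A549. SREBF2 overlapped between the groups, with a log2 fold change of -0.02 and a 95% interval of -0.10 to 0.05. SCAP lay lower in all exposed libraries by a small margin that did not pass (log2 fold change -0.07, limma adjusted p = 0.173), and it passed only under the rescaling without mitochondrial genes (log2 fold change -0.11, adjusted p = 0.0406).

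Among the transport genes in A549, STARD4, a cytosolic carrier that moves cholesterol between membranes, had 5.45, 5.03 and 4.97 FPKM in exposed cells, against 4.16, 3.04 and 3.41 FPKM in control cells. The exposed libraries lay above the controls by a 1.46-fold higher mean, and the log2 fold change was 0.45 ± 0.08 (SE, limma adjusted p = 9.16e-04). NPC2, the soluble lysosomal partner of NPC1, averaged 58.9 ± 1.81 FPKM in exposed A549 and 55.5 ± 1.43 FPKM in control A549 and did not pass (log2 fold change 0.08, limma adjusted p = 0.0747). It passed only after median centring (log2 fold change 0.14, adjusted p = 0.0124). ABCA1 averaged 2.15 ± 0.321 FPKM in exposed A549 and 2.44 ± 0.146 FPKM in control A549 (limma adjusted p = 0.136), with an adjusted p of 0.0450 without exposed A549 replicate 3. ACACA, the acetyl-CoA carboxylase that feeds FASN, fell to 18.3 ± 0.631 FPKM in exposed A549, against 20.9 ± 0.729 FPKM in control A549 (log2 fold change -0.18, limma adjusted p = 0.00414). Without exposed replicate 3 of both lines, the replicates nearest to the controls, 9 members were higher and 6 lower in A549. There, 1772 of all genes were higher and 3792 lower. In 293T, 6 members were higher and 5 lower without these replicates, beside 1904 of all genes higher and 3562 lower.

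**Figure D3:**
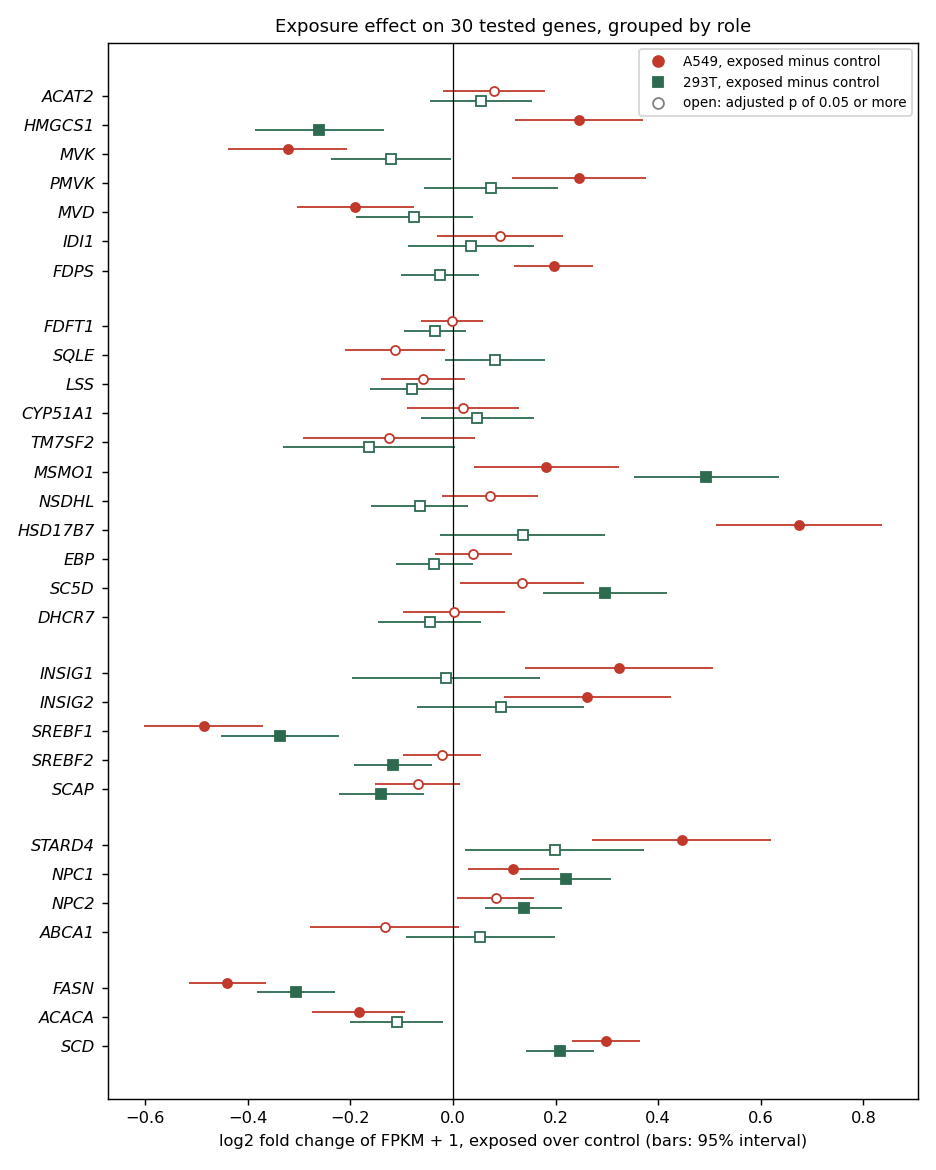
Log2 fold change, exposed over control, of the 30 tested members in A549 (red circles) and 293T (green squares), on the log2(FPKM + 1) scale with 95% limma intervals; filled points passed an adjusted p under 0.05 and open points did not. HSD17B7 in A549 lay furthest to the right at 0.67, SREBF1 in A549 furthest to the left at -0.49, and HMGCS1 had opposite signs in the lines.

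In 293T, exposure was followed by higher MSMO1, SC5D, NPC1, NPC2 and SCD and by lower HMGCS1, SREBF1, SREBF2, SCAP and FASN. Thus 5 of the 30 members tested rose and 5 fell, 33.3% of them, against 38.0% of all 13811 genes tested (13.7% higher and 24.2% lower). The median log2 fold change of the members was -0.02, against -0.03 over all genes tested. Libraries of the groups did not overlap for 13 members, 7 above and 6 below, against 50% of all genes tested (19.1% above and 30.8% below). After quantile normalisation 6 rose and 3 fell, with 2403 of all genes higher and 2620 lower, against 1897 and 3346 as deposited. Without control 293T replicate 1 the count of lower members was also 3, with 2602 of all genes lower.

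HMGCS1 was the only 1 of the 7 mevalonate genes that passed in 293T (14.3%, against 38.0% of all genes tested), and it fell. It had 16.2, 16.997 and 19.2 FPKM in exposed 293T, against 21.5, 21.3 and 20.5 FPKM in control 293T. The exposed libraries lay below the controls, with a log2 fold change of -0.26 ± 0.06 (SE, limma adjusted p = 0.00406). FDPS had 74.1, 81.4 and 80.1 FPKM in exposed 293T, against 81.4, 79.4 and 78.8 FPKM in control 293T, which overlapped (95% interval of the log2 fold change -0.10 to 0.05). MVK had a log2 fold change of -0.12 (limma adjusted p = 0.0956) and of -0.18 with an adjusted p of 0.0109 without exposed 293T replicate 3. Of the 11 later enzymes, MSMO1 and SC5D rose and 0 fell, beside 13.7% of all genes tested higher and 24.2% lower. SC5D averaged 22.5 ± 0.804 FPKM in exposed 293T and 18.1 ± 0.629 FPKM in control 293T (SD, n = 3 each, log2 fold change 0.30, limma adjusted p = 0.00156). HSD17B7 had 10.9, 11.9 and 10.1 FPKM in exposed 293T, against 9.88, 9.86 and 9.87 FPKM in control 293T. These groups did not overlap, yet the log2 fold change of 0.14 ± 0.07 (SE) did not pass (limma adjusted p = 0.170), and it passed without exposed replicate 3 of both lines (log2 fold change 0.19, adjusted p = 0.0130).

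Of the 5 SREBP regulators, 3 passed in 293T and all 3 were lower, beside 24.2% of all genes tested lower. SREBF2 had 21.8, 20.9 and 20.5 FPKM in exposed 293T, against 23.3, 22.8 and 22.6 FPKM in control 293T, and SCAP had 23.9, 23.0 and 23.2 FPKM in exposed 293T, against 26.4, 26.4 and 24.7 FPKM in control 293T. The exposed libraries of both lay below the controls by a small margin, with log2 fold changes of -0.12 (limma adjusted p = 0.0201) and -0.14 (limma adjusted p = 0.0123). The SREBF2 call was lost without exposed 293T replicate 2 or 3 (adjusted p = 0.0592 and 0.0566) or control 293T replicate 1 (adjusted p = 0.0731), and after quantile normalisation or median centring. The SCAP call was lost without control 293T replicate 1 (adjusted p = 0.0507) or 2 (adjusted p = 0.0520) and after quantile normalisation (adjusted p = 0.0619). INSIG1 had 45.2, 45.2 and 56.0 FPKM in exposed 293T, against 48.9, 49.9 and 48.3 FPKM in control 293T. INSIG2 had 4.32, 4.61 and 4.48 FPKM in exposed 293T, against 3.58, 4.49 and 4.36 FPKM in control 293T. Both INSIG genes overlapped between the groups, and exposed replicate 3 was the high library for INSIG1, whose log2 fold change had a 95% interval of -0.20 to 0.17.

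NPC2 averaged 31.6 ± 0.566 FPKM in exposed 293T and 28.6 ± 0.939 FPKM in control 293T (SD, n = 3 each, log2 fold change 0.14, limma adjusted p = 0.00826), so both lysosomal cholesterol genes were higher. STARD4 had 3.52, 3.01 and 2.97 FPKM in exposed 293T, against 2.53, 2.66 and 2.68 FPKM in control 293T. The exposed libraries lay above the controls but the change did not pass (log2 fold change 0.20, limma adjusted p = 0.0695). It passed without control A549 replicate 1 or 2 (adjusted p = 0.0220 and 0.0409), after quantile normalisation or median centring, and with limma-voom on the recovered counts. ACACA averaged 17.5 ± 0.466 FPKM in exposed 293T and 18.9 ± 0.824 FPKM in control 293T, below all controls but short of the threshold (log2 fold change -0.11, limma adjusted p = 0.0557). It passed without control 293T replicate 3 (adjusted p = 0.0259), with limma-voom on the recovered counts and under the rescaling without mitochondrial genes.

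The exposure responses of the lines differed for 4 members when the difference itself was tested. This is 13.3% of the 30 members tested, against 12.5% of all 13811 genes tested (5.51% higher and 7.03% lower in A549 relative to 293T). HMGCS1, higher in exposed A549 and lower in exposed 293T, had a difference of 0.51 ± 0.08 on the log2 scale (SE, A549 minus 293T, limma adjusted p = 0.00244). HSD17B7 differed by 0.54 ± 0.10 (limma adjusted p = 0.00680) and FDPS by 0.22 ± 0.05 (limma adjusted p = 0.0136), both with the higher response in A549. MSMO1 differed by -0.31 ± 0.09, with the higher response in 293T (limma adjusted p = 0.0440). That call was lost without any of 7 single libraries, at adjusted p-values of 0.0740 to 0.0998: exposed A549 replicates 1 and 3, control A549 replicate 1, exposed 293T replicates 1 and 3, and control 293T replicates 1 and 2. It was lost also under 6 of the other alternatives, at adjusted p-values up to 0.114. INSIG1, which passed in A549 alone, had a difference of 0.34 that did not pass (limma adjusted p = 0.0859), with 0.44 and an adjusted p of 0.0127 without exposed 293T replicate 3. STARD4 had a difference of 0.25 that did not pass (limma adjusted p = 0.182), with 0.34 and an adjusted p of 0.0347 without control A549 replicate 1. SQLE had a difference of -0.20 that did not pass (limma adjusted p = 0.0632), with an adjusted p of 0.0392 without exposed 293T replicate 1. Rescaling to TPM (transcripts scaled to a fixed sum per library) left 3 members higher and 0 lower, with 666 and 765 of all genes, and quantile normalisation gave 3 higher and 2 lower, with 798 and 924 of all genes, against 761 and 971 as deposited.

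Across the 30 members, the log2 fold changes in A549 and in 293T had a Pearson r of 0.60 and a Spearman rho of 0.67, and 22 of 30 (73.3%) had the same sign. Over all 13811 genes tested the values were 0.60, 0.56 and 71.2%. These are correlations across genes, which are not independent replicates, and each line had its own controls. Members past the threshold in both lines numbered 3 higher in both, 2 lower in both and 1 in opposite directions, and 11 of the 30 passed in neither. Of all genes tested, 1.11% were called in opposite directions and 43.5% in neither line.

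**Figure D4:**
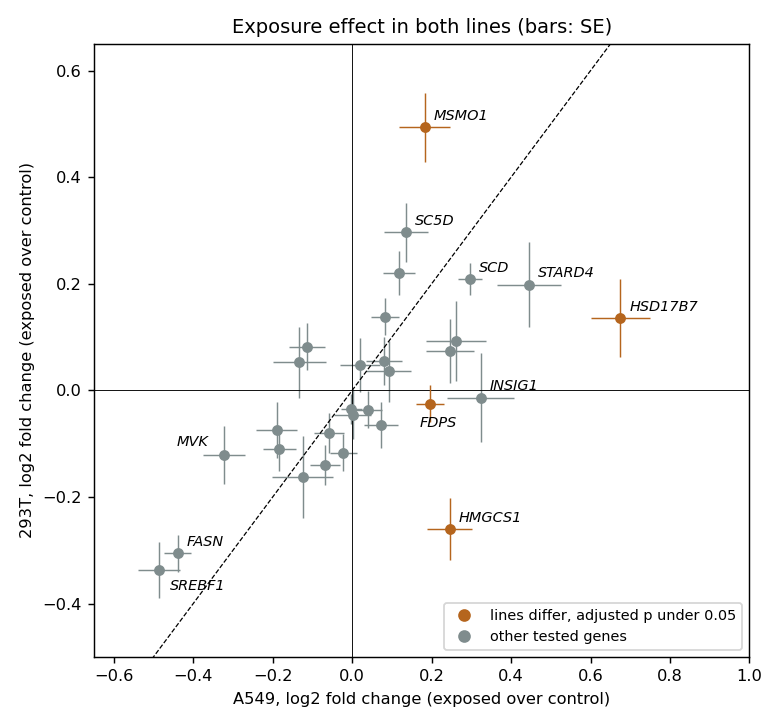
Log2 fold change, exposed over control, in A549 (horizontal) and in 293T (vertical) for the 30 tested members, with SE bars; the dashed line marks equal responses, and orange points are genes whose responses differed between the lines at an adjusted p under 0.05. HMGCS1, HSD17B7 and FDPS lay to the right of the dashed line, MSMO1 lay above it, and SREBF1 and FASN lay at the lower left.

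Without exposure, most of these genes already differed in level between the lines, as did most of all genes tested. In control A549 compared with control 293T, SREBF1, ABCA1, SCD, NPC2 and MSMO1 were higher and SC5D, INSIG1, ACAT2 and SCAP were lower. ABCA1 entered this test through its level in A549 alone, and it is counted among the higher members below. Of the 30 members tested, 14 were higher and 12 lower, 86.7% of them, against 88.3% of all 13811 genes tested (32.4% higher and 55.9% lower), with a median log2 fold change of 0.06 against -0.25 over all genes tested. The 26 called members had libraries that did not overlap between the control groups, 14 above and 12 below, against 89.6% of all genes tested (33.2% above and 56.4% below). Rescaling to TPM moved the median of all genes to -0.41 and gave 9 members higher and 13 lower, with 3981 of all genes higher and 8331 lower, against 4474 and 7722 as deposited.

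SREBF1 stood at 27.3 ± 0.968 FPKM in control A549 and 3.79 ± 0.199 FPKM in control 293T (SD, n = 3 each), a 7.21-fold higher mean (log2 fold change 2.56, limma adjusted p = 5.68e-14). SREBF2 went the other way, at 15.01 ± 0.319 FPKM in control A549 and 22.9 ± 0.370 FPKM in control 293T (log2 fold change -0.58, limma adjusted p = 3.16e-09). SCAP was lower in A549, at 11.9 ± 0.472 FPKM in control A549 and 25.8 ± 0.947 FPKM in control 293T. INSIG1 was lower too, at 19.6 ± 0.413 FPKM in control A549 and 49.0 ± 0.843 FPKM in control 293T, while INSIG2 did not pass (log2 fold change 0.09, limma adjusted p = 0.289).

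Among the enzymes, SC5D stood lowest in A549 relative to 293T, at 3.69 ± 0.365 FPKM in control A549 and 18.1 ± 0.629 FPKM in control 293T (SD, n = 3 each, log2 fold change -2.03). ACAT2 averaged 28.6 ± 0.701 FPKM in control A549 and 63.4 ± 0.365 FPKM in control 293T. On the other strand, exons of SOD2 overlap 26.5% of its exonic length and exons of TCP1 9.23%. TCP1 averaged 151 ± 3.76 FPKM in control A549 and 322 ± 5.30 FPKM in control 293T. SOD2 averaged 15.3 ± 1.02 FPKM in control A549 and 7.55 ± 0.175 FPKM in control 293T. The part of shared reads in the ACAT2 result was not tested. MSMO1, which acts before SC5D, averaged 28.98 ± 2.57 FPKM in control A549 and 16.3 ± 0.752 FPKM in control 293T. Within fatty acid synthesis, SCD was 2.03-fold higher in control A549 than in control 293T, whereas FASN averaged 49.6 ± 1.48 FPKM in control A549 and 75.5 ± 1.01 FPKM in control 293T (log2 fold change -0.60, limma adjusted p = 2.06e-09). ABCA1, the exporter that loads cholesterol onto apolipoproteins, averaged 2.44 ± 0.146 FPKM in control A549 and 0.109 ± 0.0318 FPKM in control 293T, a 22.4-fold higher mean, the largest ratio of means among the members tested. Its log2 fold change was 1.63, since the pseudocount of 1 understates the change of a gene at this level in 293T, and it passed the filter on low values through A549 alone. NPC2 was 1.94-fold higher in control A549, and NPC1 did not pass (log2 fold change 0.03, limma adjusted p = 0.457).

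**Figure D5:**
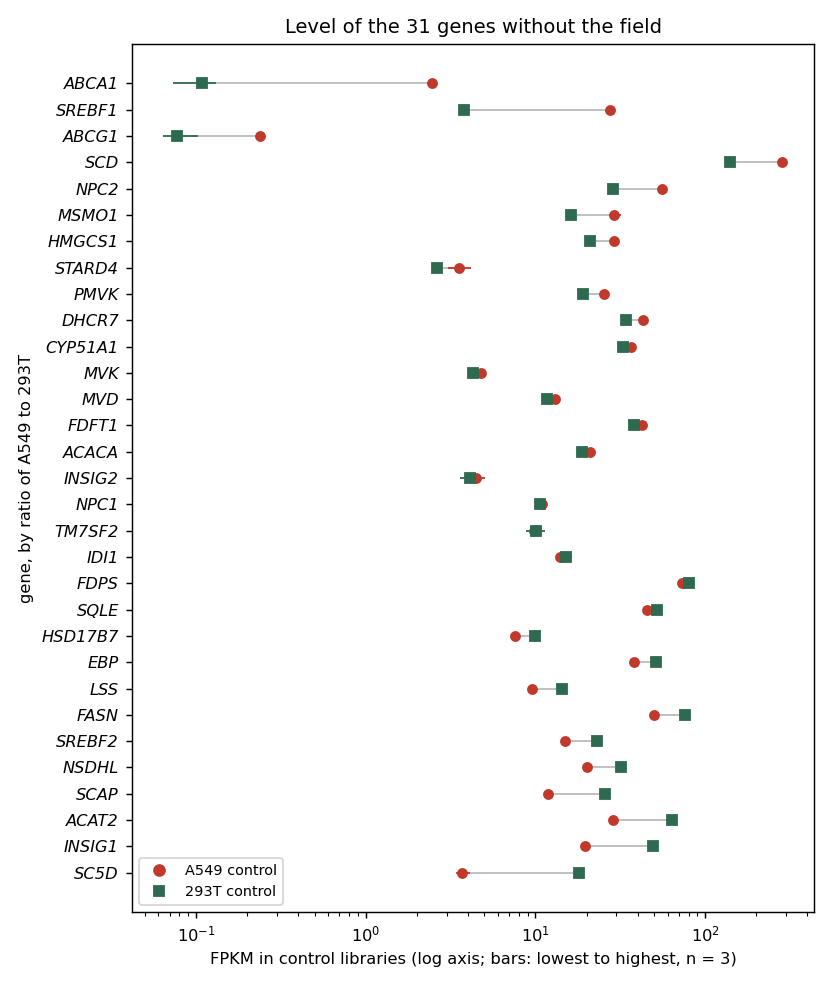
Mean FPKM of each member in control A549 and control 293T on a log axis, red circles for A549 and green squares for 293T, with bars from the lowest to the highest of 3 libraries. SREBF1 and ABCA1 lay far higher in control A549, and SC5D, INSIG1, ACAT2 and SCAP lay higher in control 293T.

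The other genes of the pathway were counted as lists, beside 40.2% of all genes tested called in A549 (13.3% higher and 26.9% lower) and 38.0% in 293T (13.7% higher and 24.2% lower). Of 12 genes of SREBP processing and degradation, 0 rose and 3 fell in A549, and 3 rose and 6 fell in 293T, with a median log2 fold change of -0.04 in A549 and -0.08 in 293T, against -0.04 and -0.03 over all genes tested. RNF139, a ubiquitin ligase of the endoplasmic reticulum, was lower in both lines, with log2 fold changes of -0.27 in A549 (limma adjusted p = 0.00270) and -0.22 in 293T (limma adjusted p = 0.0117). In A549 the ubiquitin ligase gene RNF145 (log2 fold change -0.17) and GPS2 (-0.13) fell as well, and FBXW7 did not pass (-0.14, limma adjusted p = 0.112). In 293T ERLIN1, which binds cholesterol in the endoplasmic reticulum, rose (log2 fold change 0.24, limma adjusted p = 8.48e-04), whereas its paralog ERLIN2 fell (-0.21, limma adjusted p = 0.00195). MBTPS2, the site-2 protease that releases the SREBPs, fell to 12.8 ± 0.308 FPKM in exposed 293T, against 15.04 ± 0.459 FPKM in control 293T (SD, n = 3 each). Of 16 tested genes among further lipogenic enzymes, 4 rose and 6 fell in A549 and 2 rose and 6 fell in 293T. The fatty acid elongase gene ELOVL5 rose in both lines, with log2 fold changes of 0.40 in A549 (limma adjusted p = 5.87e-05) and 0.24 in 293T (limma adjusted p = 0.00207), as did ACSL3, the acyl-CoA synthetase of lipid droplets, at 0.25 and 0.27. ELOVL6, which elongates palmitate, fell in A549 (-0.37), and TMEM97, an SREBP target that binds NPC1, rose there (0.36). In 293T the desaturase gene FADS3 (-0.23) and ACSS2, which makes acetyl-CoA from acetate (-0.19), fell. Of 13 tested genes of sterol uptake, esterification and LXR control, 2 rose and 1 fell in A549 and 1 rose and 5 fell in 293T. LRP8, a lipoprotein receptor, fell to 10.1 ± 1.01 FPKM in exposed A549, against 15.6 ± 0.359 FPKM in control A549, and to 2.80 ± 0.183 FPKM in exposed 293T, against 4.00 ± 0.181 FPKM in control 293T (SD, n = 3 each). In A549 the oxysterol-binding protein genes OSBPL1A (log2 fold change 0.24) and OSBP (0.16) rose, and LIPA, the lysosomal acid lipase gene, did not pass (0.06, limma adjusted p = 0.114). In 293T the phospholipid remodelling gene LPCAT3 (-0.29) and SCARB1, a receptor for high-density lipoprotein (-0.20), fell, and the lipoprotein receptor gene VLDLR rose (0.29). VLDLR was near the filter on low values, at 0.933 ± 0.184 FPKM in exposed 293T and 0.583 ± 0.0914 FPKM in control 293T (SD, n = 3 each). The medians of the lipogenic list were -0.04 in A549 and -0.06 in 293T, and those of the uptake list were -0.02 and -0.03, close to the medians of all genes tested.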

How the data were processed

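RNA of 293T and A549 cells was sequenced after poly(A) selection, per the labels' protocols, and fastp, HISAT2, HTSeq and the build GRCh38 are named in the submitters' processing notes, with no versions. The values are FPKM per gene and library, as deposited by the authors; the counting strand and the annotation are not given in the sources used here. Ratios between FPKM values gave whole counts for every gene within 0.01 counts, which served for depth and for 1 alternative. Values were tested as log2(FPKM + 1) with limma 3.58.1 in R 4.3.3, with a mean per group over all 12 libraries, an intensity trend and 8 residual degrees of freedom, two-sided, after removal of 12537 genes without 0.5 FPKM in at least 3 libraries. Benjamini-Hochberg adjustment ran over all 13811 genes. The code was tested on simulated data. Exons came from GENCODE 29 and promoters from RefSeq on GRCh38.p14. Tables and figures were made with Python 3.11.15, numpy 2.4.6, pandas 2.3.3 and matplotlib 3.10.9.

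The members and lists were chosen with earlier results of these data known. Values in every library are given for members past the threshold in at least 1 line with a log2 fold change of at least 0.4 in size and for the 5 SREBP regulators; those of HMGCS1, FDPS and SCD were added after their values were seen. Genes of the other lists are named only where their adjusted p was among the 4 smallest of the list. Promoters are shown for members that moved the same way in both lines or that hold a sterol element. A planned comparison of the INSIG1 and INSIG2 proteins was not done. Alternatives were a pseudocount of 0.1, no filter or a mean of at least 1 FPKM, quantile normalization, TPM, median centring, rescaling without mitochondrial genes, no trend, each line alone, a replicate block, limma-voom, and leaving out libraries.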

Additional observations from a re-analysis of the deposited data

Results flagged for a closer look

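In 4 members the response to exposure differed between the lines by a direct test of that difference, with all values on the log2(FPKM + 1) scale as A549 minus 293T. HMGCS1 differed by 0.51, with an effect of 0.25 in A549 and -0.26 in 293T. HSD17B7 differed by 0.54, with 0.67 in A549 and 0.14 in 293T. FDPS differed by 0.22, with 0.20 in A549 and -0.02 in 293T. MSMO1 differed by -0.31, with 0.18 in A549 and 0.49 in 293T. The adjusted p-values of limma were 0.00244, 0.00680, 0.0136 and 0.0440 in that order, and 12.5% of all genes tested passed the same test. The MSMO1 difference was past the threshold in 10 of 23 alternatives.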

How the results depend on the processing

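No called fold change of a member changed sign under any alternative. Of the called values, 11 of 15 in A549, 8 of 10 in 293T, 2 of 4 in the difference and 19 of 26 between the control lines kept their side of the threshold throughout. The count of members lower in 293T was 3 under quantile normalization, against 5. The count of members with a lower response in A549 than in 293T, which rests on MSMO1 alone, was 0 with a pseudocount of 0.1, with no filter, with TPM, without the trend, with the replicate block and without exposed replicate 3 of both lines, and 2 under quantile normalization. Over all genes, the replicate block gave 472 higher and 575 lower in the difference, against 761 and 971, and 637 were lower without control 293T replicate 2. The fit of each line alone gives no value for the difference or between lines. Between the control lines, 9 members were higher with TPM, against 14. Leaving out single libraries gave 7 to 10 higher and 4 to 6 lower in A549, 5 to 6 higher and 3 to 6 lower in 293T, 3 to 4 higher and 0 to 1 lower in the difference, and 11 to 14 higher and 12 to 13 lower between the control lines. Over all genes, the same omissions gave 1509 to 1893 higher and 2999 to 3830 lower in A549. In 293T they gave 1447 to 1952 higher and 2500 to 3518 lower. The difference had 544 to 1005 higher and 637 to 1030 lower, and the control lines 4361 to 4508 higher and 7555 to 7752 lower. The members between control lines that lost their call somewhere were MVK, MVD, FDPS, FDFT1, SQLE, CYP51A1 and ACACA. The cause of these losses was not tested.

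Replicate numbers did not pair the libraries: deviations of libraries with the same number had correlations of -0.14, -0.07 and -0.04 in A549 and of -0.07, 0.00 and -0.10 in 293T. With the replicate block, 8 members were higher and 5 lower in A549, 5 higher and 5 lower in 293T, and 2 higher and 0 lower in the difference, where FDPS (adjusted p = 0.0543) and MSMO1 (adjusted p = 0.0824) did not pass; MSMO1 (adjusted p = 0.0620) and NPC1 (adjusted p = 0.0974) did not pass in A549. Low counts limit ABCG1 and, in 293T, ABCA1; without the filter, ABCG1 had log2 fold changes of 0.03 in A549 (adjusted p = 0.656) and -0.02 in 293T (adjusted p = 0.700).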
